A study of Mus musculus with 3 samples.

Results

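The genes described here are 29 genes of the lysosome, the acidic organelle in which cells break down proteins, sugar chains and lipids. They were taken by symbol from a list of lysosomal hydrolases and membrane genes, and all 29 are among the 32285 genes of the deposited matrices. By role they are 6 membrane and structural genes (Lamp1, Lamp2, Cd68, Laptm5, Mcoln1, Npc1) and 9 cathepsin-type peptidases (Ctsa, Ctsb, Ctsc, Ctsd, Ctsh, Ctsl, Ctss, Ctsz and legumain, Lgmn). The others are 4 glycosidases (Hexa, Gla, Gusb, Neu1), 4 genes of lipid handling (Lipa, Npc2, Psap, Asah1), 4 subunits of the proton pump (Atp6v0c, Atp6v0d1, Atp6v1a, Atp6v1b2), and the pair Grn and Tfeb. The rule uses symbols and no measured value.

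The cells came from the duodenum of C57B6/J mice, male per the series title, at day 30 after either saline or preformed fibrils of mouse alpha-synuclein (PFF, aggregates made from the recombinant protein) were injected into the duodenal wall. Tissue was digested with Accumax, 1 portion was sorted for the leukocyte protein CD45 and the other enriched on CD11b beads, and both portions were joined before loading on the 10x 3' v3 platform. Saline 1 and PFF 1 carry the batch label 1 and saline 2 carries the batch label 2. The number of mice behind a library is not given in the sources used here, so p-values measure the spread between these libraries only.

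Lysosomal enzymes are made in the secretory pathway, sorted to the lysosome by mannose 6-phosphate receptors and other carriers, and work at the low pH that the vacuolar proton pump sets up. Macrophages and dendritic cells use the same enzymes to digest what they take up and to trim antigen for presentation. In the intestine, macrophages under the epithelium are known for clearing dead cells and particles, and aggregated alpha-synuclein is itself degraded in part in lysosomes. The transcription factor TFEB drives many lysosomal genes through the CLEAR element, whose core is the E-box CACGTG.

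That core was searched in the 250 bases before the RefSeq start of each gene (GRCm38.p6, both strands, the core being its own reverse complement). It was present for 8 of the 24 members with a promoter in the table, which is 33.3%, and for 6.86% of all 27025 genes with one. The longer form TCACGTGA, which contains the core, was present for 5 members (20.8%) and 0.907% of all genes. The overlapping form GTCACGTG was present for 6 members (25%) and 2.11% of all genes. The 8 members were Lamp1, Mcoln1, Ctsa, Ctsd, Ctsl, Lgmn, Gla and Atp6v1a. A match is a description of the letters and not a measured binding site. The 3 windows below show the densest cluster, which lies before Lamp1, 1 of the 2 elements before Ctsd, and the element before Atp6v1a. The other Ctsd element, 98 bases before the start, lies within an annotated exon and is not shown. Annotated exons also cover 32 of 32 bases of the Ctsa window and 74 of 79 of the Gla window. They cover 43 of 72 bases for Mcoln1 and 23 of 40 for Ctsl. The Atp6v1a and Lgmn windows lie outside exons but inside the GENCODE span of their own gene. Capitals mark the core with any overlap of the longer forms.
Lamp1, chr8:13159080-13159160, plus strand, 4 cores between 61 and 15 bases before the start: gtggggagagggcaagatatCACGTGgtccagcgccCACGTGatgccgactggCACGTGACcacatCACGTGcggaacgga
Ctsd, chr7:142388047-142388077, minus strand, core 245 bases before the start: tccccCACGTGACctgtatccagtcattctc
Atp6v1a, chr16:44139365-44139410, minus strand, 1 core 131 bases before the start: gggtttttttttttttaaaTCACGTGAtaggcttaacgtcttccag

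Before the values, some facts about the libraries are needed. Both saline files hold 3 wells in common, with 1509, 3648 and 8732 cells and identical counts in every cell, so these wells were counted once, as a library called saline shared. Saline 1 and saline 2 below are the single well that each file holds alone. After filtering 5221, 4182, 10620 and 11060 cells remained in saline 1, saline 2, saline shared and PFF 1, with median depths between 3217 and 10030 UMIs (unique molecular identifiers, 1 per counted RNA molecule). Saline 2 and PFF 1 share 119 barcode sequences, against 9 to 65 for the other pairs of libraries. These shared barcodes had a median of 59931 UMIs in saline 2 and 696 in PFF 1. Of the 99 kept in PFF 1, 35 were enterocyte-like, 15 T-like and 0 macrophage-like. Removing every barcode held by 2 libraries moved the number of members called in an enterocyte-like contrast from 15 to 16 higher and changed no other count of members.

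Cells were assigned to classes by fixed marker genes, none of which is a member. The 6 classes with at least 5 cells in each of the 4 libraries were macrophage-like (10, 45, 79 and 99 cells in saline 1, saline 2, saline shared and PFF 1), conventional dendritic-like (14, 48, 82 and 49), plasmacytoid dendritic-like (80, 18, 122 and 102), B-like (48, 91, 441 and 564), T-like (4854, 3196, 8371 and 9218) and enterocyte-like (34, 471, 912 and 385). In the macrophage-like cells the defining complement genes C1qa and C1qb stood at 3780 and 2695 CPM (UMIs of a gene scaled to a fixed class total) and the receptor gene Csf1r at 1376 CPM, over all libraries. The T cell receptor genes Trac and Trbc2 stood at 5.39 and 12.9 CPM in them. The dendritic genes Flt3, Zbtb46 and Xcr1 had 0 UMIs, while Cadm1 (611 CPM), the monocyte gene Fn1 (576.5 CPM) and the B cell gene Bank1 (423.5 CPM) were present, and their part in the results was not tested. Their depth was low, with medians of 1279 to 2552 UMIs per cell, and saline 1 holds 18121 macrophage-like UMIs in all. Levels below are CPM of the class's UMIs in a library, unscaled. These are 3' tags, counted once per molecule whatever the length of the transcript. As a floor, C1qa, which T cells do not make, read 0.577 to 1.36 CPM in T-like cells. The source of these UMIs was not tested, and the floor can differ between genes and classes.

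On GRCm38 (GENCODE M21), the leading member of each role lies as follows. Lamp1 is at chr8:13159161-13175338 and Ctss at chr3:95526786-95556403, both on the plus strand. Hexa is at chr9:59539540-59565109 and Psap at chr10:60277627-60302597, both on the plus strand. Atp6v0c is at chr17:24163866-24169702 on the minus strand and Grn at chr11:102430315-102437048 on the plus strand. Of these, Lamp1, Hexa and Grn overlap a gene on the opposite strand, and whether the counting used strand is not stated.

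Summed over the 29 members, lysosomal RNA took the largest share of UMIs in macrophage-like cells of every library. The share was 2.70%, 2.22%, 1.94% and 1.96% in saline 1, saline 2, saline shared and PFF 1 (2.21% ± 0.353, SD, n = 4). Plasmacytoid dendritic-like cells followed with 1.25% ± 0.0654 and conventional dendritic-like cells with 0.586% ± 0.0344. The ranges of these 3 classes did not overlap. T-like, B-like and enterocyte-like cells lay together at 0.232% ± 0.00796, 0.23% ± 0.0258 and 0.206% ± 0.0195. The 9 cathepsin-type genes made up 1.11% ± 0.136 of the macrophage-like UMIs and 0.0746% ± 0.00358 of the T-like UMIs. The 4 proton pump members differed less between classes, with 0.0938% ± 0.0171 in macrophage-like and 0.0289% ± 0.00152 in T-like cells.

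**Figure D1:**
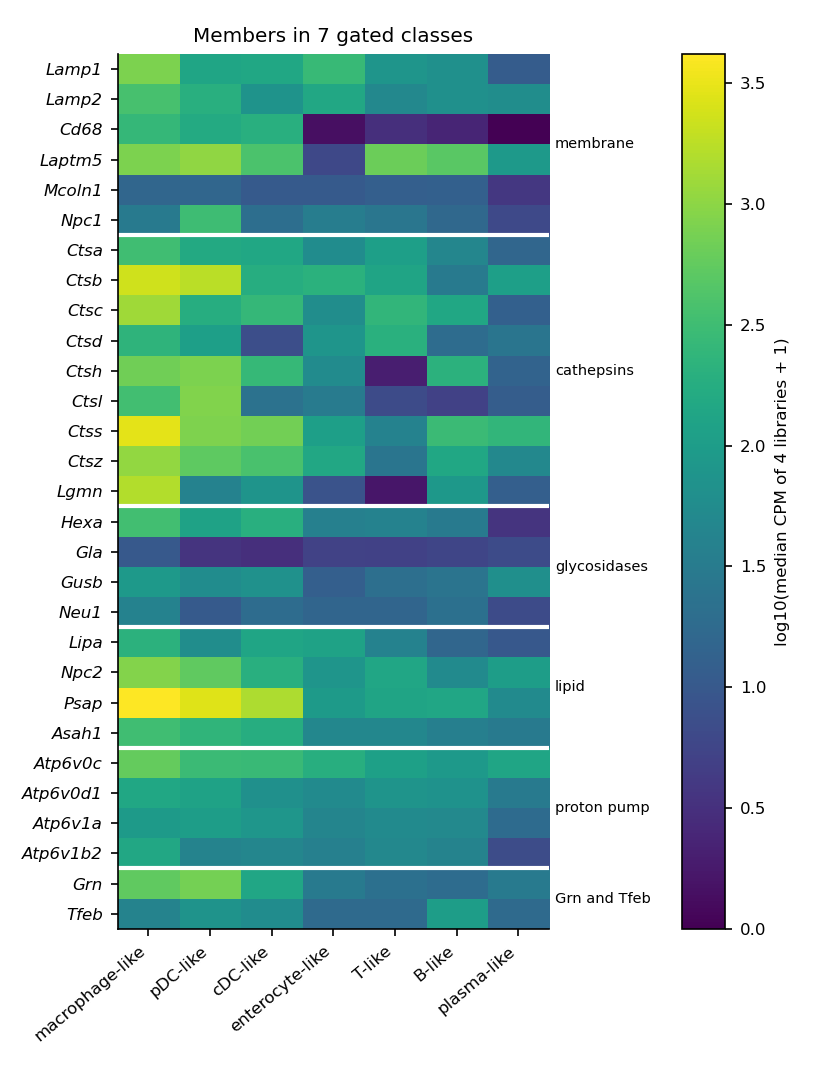
Median level of each of the 29 members over 4 libraries in 7 gated classes, as log10(CPM + 1), with members in rows grouped by role and classes in columns. Psap, Ctss and Ctsb are brightest in macrophage-like cells, Npc1, Ctsl and Grn peak in plasmacytoid dendritic-like (pDC) cells, Tfeb peaks in B-like cells, and Laptm5 is dark in enterocyte-like cells; cDC stands for conventional dendritic.

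Macrophage-like cells were compared with T-like cells in 1 fit over 6 classes and 4 libraries with the library as a block (edgeR's quasi-likelihood test, Benjamini-Hochberg adjusted over 11777 genes, called under 0.05). Gla had too few counts to pass the filter, which left 28 members. Of these, 25 were higher in macrophage-like cells and 0 lower, and over all genes 19.5% were called higher and 21.6% lower. The median log2 fold change was 2.75 for the members and -0.28 for all genes tested. By role, 4 of 6 membrane genes, 8 of 9 cathepsin-type genes, all 3 tested glycosidases, all 4 lipid genes, all 4 pump subunits, and both Grn and Tfeb were called. The largest changes were those of Lgmn (11.23 ± 0.37, log2 ± SE), Ctsh (9.51 ± 0.4) and Cd68 (7 ± 0.33). In T-like cells Lgmn and Ctsh read 0.404 to 1.23 and 0.606 to 1.48 CPM, close to the C1qa floor, so these folds are set against a background level. Cd68 read 1.33 to 3.65 CPM there, from within that floor to a little above it. The share of cells with a UMI followed the levels after every cell was thinned to 1000 UMIs, which left out 53 of 233 macrophage-like and 146 of 25639 T-like cells. Psap was then seen in 88.9% and 12% of these classes, Ctss in 86.1% and 3.27%, and Lgmn in 60% and 0.051%, against 91.4% and 55.1%, 91.8% and 18.7%, and 76% and 0.468% before thinning. Ctsd was seen in 15.6% of thinned macrophage-like and 18.5% of thinned T-like cells (28.8% and 68% before). The 3 members not called were Ctsd (0.14 ± 0.24, adjusted p = 0.697), Laptm5 (0.41 ± 0.28, adjusted p = 0.26) and Mcoln1 (0.83 ± 0.44, adjusted p = 0.139). The call for Npc1 (1.09 ± 0.42) was lost without PFF 1 (0.21, adjusted p = 0.816), without saline 1, without the low-count filter and with DESeq2.

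Among the membrane genes, Lamp1 encodes the most abundant glycoprotein of the lysosomal membrane. It stood at 551.8, 899, 716.4 and 951.9 CPM in the macrophage-like cells of saline 1, saline 2, saline shared and PFF 1. In T-like cells it was 80.3, 84.5, 63.3 and 73.3 CPM, so the classes did not overlap, and the fitted difference was 11.5-fold (log2 3.52 ± 0.28, edgeR adjusted p = 8.573e-11). Enterocyte-like cells came next at 418.3, 272.4, 281 and 263.5 CPM. Lamp2, its relative that also serves chaperone-mediated autophagy, ran the same way at 385.8 CPM ± 128 in macrophage-like and 48.5 CPM ± 1.25 in T-like cells. Laptm5, a transmembrane protein of blood cell lysosomes, behaved otherwise. It read 1180, 883.9, 1039 and 1024 CPM in plasmacytoid dendritic-like cells, 646.8, 617.4, 628.3 and 693.2 CPM in T-like cells and 9.29, 4.32, 0.682 and 5.81 CPM in enterocyte-like cells. It was thus high in every class of blood origin in the fit and far lower in enterocyte-like cells. Mcoln1, the calcium channel of the lysosome, was low throughout, at 12.4 CPM ± 9.7 in macrophage-like and 12.1 CPM ± 2.75 in T-like cells.

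Npc1, which exports cholesterol from the lysosome together with Npc2, had its highest level outside the macrophages. In plasmacytoid dendritic-like cells it stood at 396.4, 289.6, 335.6 and 296.9 CPM. In T-like cells it was 26.3, 24.5, 30 and 24.8 CPM, and the fitted log2 difference was 3.67 ± 0.32 (edgeR adjusted p = 4.209e-10). Macrophage-like cells held 0, 4, 10 and 36 Npc1 UMIs in saline 1, saline 2, saline shared and PFF 1, which is 34.8 CPM ± 34.2. Npc2, the soluble partner, stood at 782.2 CPM ± 313 in macrophage-like and 551 CPM ± 80.6 in plasmacytoid dendritic-like cells. These ranges overlapped, with saline 1 at 331.1 CPM in macrophage-like cells, and the difference was not tested.

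**Figure D2:**
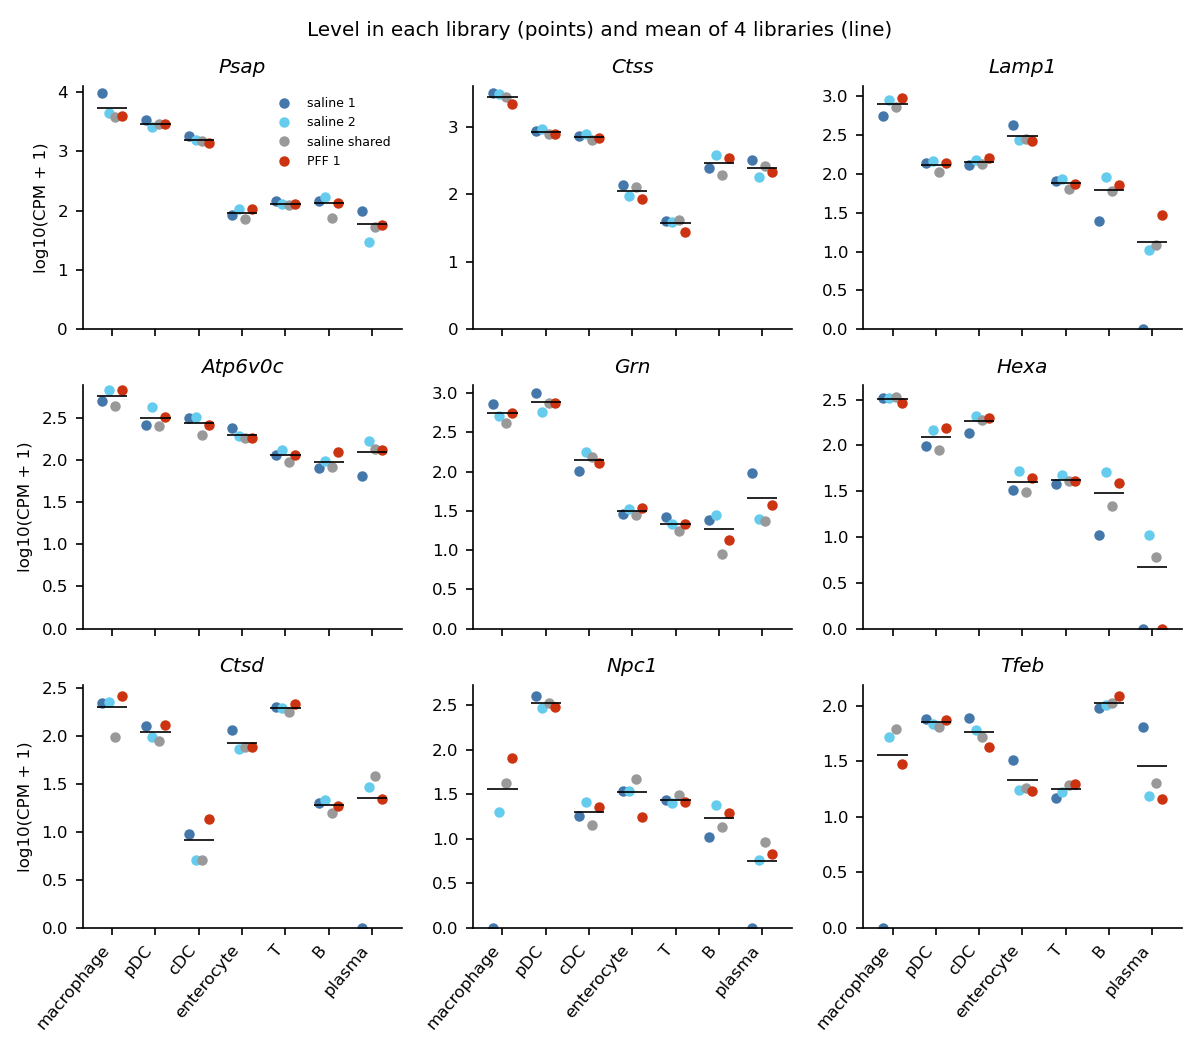
Level of 9 members in 7 gated classes, as log10(CPM + 1), with 1 point per library (coloured) and a line at the mean of the 4 libraries. Psap and Ctss fall from macrophage to T-like cells, Ctsd is lowest in conventional dendritic-like (cDC) cells among the 6 fitted classes, and Npc1 and Tfeb are at 0 in the macrophage-like cells of saline 1.

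Cathepsins are proteases named by letter that differ in chemistry and in the cells that use them. Ctss, a cysteine protease that trims the invariant chain of MHC class II, was the most abundant of the group in macrophage-like cells at 3201, 3125, 2825 and 2165 CPM. It read 870.6, 925.3, 774.3 and 787 CPM in plasmacytoid dendritic-like cells and 40.1, 38.3, 40.1 and 26.7 CPM in T-like cells. No library of 1 of these classes overlapped another, and the difference between macrophage-like and T-like cells was 79.2-fold (log2 6.31 ± 0.3, edgeR adjusted p = 7.732e-15). Ctsb, an abundant cysteine protease, was nearly as high in plasmacytoid dendritic-like cells (1763 CPM ± 111) as in macrophage-like cells (2219 CPM ± 375). Lgmn, an asparaginyl endopeptidase that also processes other cathepsins, stood at 1815 CPM ± 648 in macrophage-like, 71.4 CPM ± 9.47 in conventional dendritic-like and 44.1 CPM ± 10.9 in plasmacytoid dendritic-like cells. Ctsl had another order, with 371.4 CPM ± 82.2, 23 CPM ± 6.93 and 898.5 CPM ± 225 in the same 3 classes. A single macrophage-like cell of saline 2 held 52 of the 105 Ctsl UMIs there. Ctsh, an aminopeptidase, was high in all antigen-presenting classes, from 209.9 CPM ± 38.1 in B-like to 812.7 CPM ± 142 in plasmacytoid dendritic-like cells. In T-like cells Ctsh was close to the C1qa floor.

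Ctsc and Ctsd were the cathepsins with high levels in T-like cells. Ctsc activates granzymes by removing a dipeptide, and read 221.1, 259.5, 233.9 and 246.2 CPM in T-like cells against 1494 CPM ± 585 in macrophage-like cells. A single macrophage-like cell of saline shared held 160 of the 581 Ctsc UMIs there. Ctsd, the main aspartic protease of the lysosome, read 220.7, 225.9, 97.7 and 259 CPM in macrophage-like cells and 200, 193.8, 177 and 215.9 CPM in T-like cells. The ranges of Ctsd in these 2 classes overlapped. In conventional dendritic-like cells Ctsd was 8.47, 4.13, 4.07 and 12.5 CPM, or 23.6-fold below T-like cells in the fit (log2 -4.56 ± 0.33, edgeR adjusted p = 1.074e-11). In B-like cells it was 17.9 CPM ± 2.34, and in plasmacytoid dendritic-like cells 109.6 CPM ± 20.5. All 3 classes were called lower than T-like cells for Ctsd.

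Among the glycosidases, Hexa, the alpha chain of beta-hexosaminidase, led in macrophage-like cells with 331.1, 329.5, 337.8 and 287.8 CPM. T-like cells held 37.2, 46.1, 40.1 and 39.6 CPM, and the fitted difference was log2 3.01 ± 0.23 (edgeR adjusted p = 3.418e-11). Gusb (74.5 CPM ± 52.5 in macrophage-like cells) and the sialidase Neu1 (37.2 CPM ± 16) were low. Gla, which removes terminal galactose from glycolipids, had 0, 2, 4 and 4 UMIs in macrophage-like cells.

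**Figure D3:**
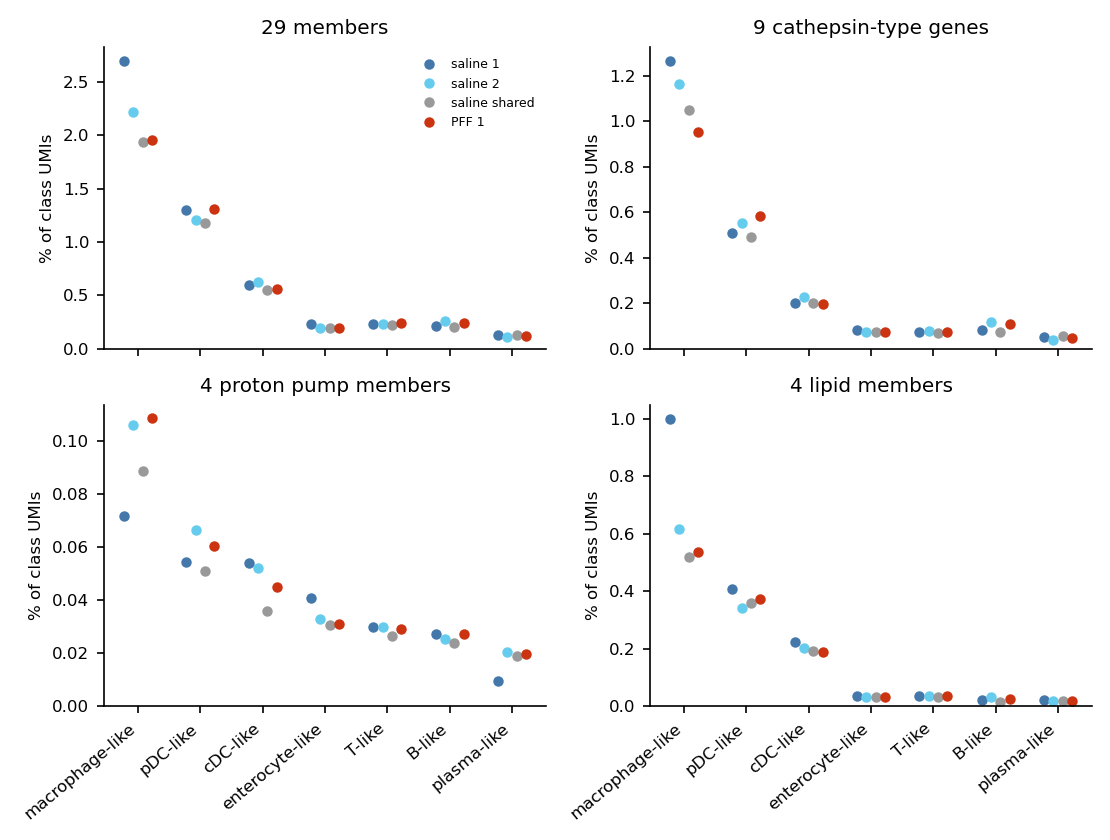
Percent of a class's UMIs taken by all 29 members, the 9 cathepsin-type genes, the 4 proton pump members and the 4 lipid genes, with 1 point per library and linear axes from 0. Macrophage-like cells lie at 1.94% to 2.70% for all members, above every other class, and saline 1 is the highest macrophage-like point for the lipid genes at 0.999%.

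Psap led the lipid genes and all members. It encodes prosaposin, which is cut into the small activator proteins that lipid hydrolases need. Macrophage-like cells held 9381, 4452, 3785 and 3918 CPM and plasmacytoid dendritic-like cells 3310, 2550, 2817 and 2811 CPM. Conventional dendritic-like cells held 1778, 1527, 1467 and 1366 CPM and T-like cells 143.6, 127.4, 121.1 and 127.1 CPM. The ranges of these 4 classes did not overlap, although in macrophage-like cells saline 1 stood far above the other libraries on 170 UMIs. Macrophage-like against T-like cells gave log2 5.28 ± 0.25 (edgeR adjusted p = 7.152e-15). Lipa, the acid lipase for cholesterol esters, was 226.3 CPM ± 68.4 in macrophage-like cells and 129.7 CPM ± 75.9 in enterocyte-like cells. A single macrophage-like cell of saline 2 held 31 of the 68 Lipa UMIs there. Asah1, the acid ceramidase, was 286.9 CPM ± 123 in macrophage-like and 231.8 CPM ± 14.1 in plasmacytoid dendritic-like cells.

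The pump subunits were present in every class of the fit. Atp6v0c, the proteolipid of the membrane ring, read 496.7, 682.5, 435.5 and 686.3 CPM in macrophage-like cells and 113.8, 129.3, 93.1 and 115.2 CPM in T-like cells. The classes did not overlap, and the fitted difference was 5.5-fold (log2 2.46 ± 0.22, edgeR adjusted p = 1.274e-09). Atp6v0d1, Atp6v1a and Atp6v1b2, which belong to the stalk and the catalytic head, differed by log2 1.17 ± 0.19, 1.05 ± 0.2 and 1.78 ± 0.22. Grn encodes progranulin, a lysosomal and secreted protein, and was 992, 567.9, 743.8 and 739.8 CPM in plasmacytoid dendritic-like cells and 717.4, 513, 415.2 and 562.3 CPM in macrophage-like cells. Within each library plasmacytoid dendritic-like cells were the higher of the pair, although the ranges overlapped. Tfeb, the regulator, had its highest level in a class that spent 0.23% of its UMIs on the members. It was highest in B-like cells of all 4 libraries at 94, 100.5, 106.3 and 121.3 CPM, against 0, 51.8, 61.1 and 28.8 CPM in macrophage-like and 13.8, 15.6, 18.5 and 18.8 CPM in T-like cells.

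Dendritic-like cells were called against T-like cells in the same fit. Conventional dendritic-like cells had 19 of 28 members higher and 1 lower, beside 21.9% and 25.3% of all genes. The highest fitted values were those of Ctsh (8.26 ± 0.38, log2 ± SE), Lgmn (6.88 ± 0.33) and Cd68 (6.69 ± 0.32), and the lowest fitted values those of Ctsd, given above, Laptm5 (-0.44 ± 0.27, not called) and Npc1 (-0.1 ± 0.38, not called). Plasmacytoid dendritic-like cells had 22 members higher and 1 lower, beside 18.8% and 22.8% of all genes. Ctsh (9.63 ± 0.4), Ctsl (7.23 ± 0.35) and Cd68 (6.19 ± 0.31) led, and Ctsd (-0.83 ± 0.22, called lower), Neu1 (-0.55 ± 0.3) and Ctsc (-0.44 ± 0.26) were lowest, the last 2 not called. Set directly against conventional dendritic-like cells, macrophage-like cells had 18 members higher and 0 lower, beside 10.3% and 9.65% of all genes. All 9 cathepsin-type genes were among the 18, led by Ctsd (4.7 ± 0.35), Lgmn (4.35 ± 0.29) and Ctsl (3.81 ± 0.36), and none of the 3 tested glycosidases was. Tfeb (-0.45 ± 0.33), Atp6v1a (0.29 ± 0.21) and Cd68 (0.31 ± 0.28) had the lowest fitted values, not called. Cd68, used widely as a macrophage marker, was 245.4 CPM ± 104 in macrophage-like, 193.8 CPM ± 52.6 in conventional dendritic-like and 162 CPM ± 23.6 in plasmacytoid dendritic-like cells, and 2.17 CPM ± 1.69 in B-like cells.

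In B-like cells the members as a set differed from T-like cells in both directions, about as often as all genes did. Of 28 tested members 6 were higher and 6 lower, beside 18.8% and 22.8% of all genes. The median log2 was -0.14 for members and -0.13 for all genes. The higher members were Ctsh (7.72 ± 0.37), Lgmn (6.89 ± 0.32), Ctss (3.1 ± 0.26), Tfeb (2.77 ± 0.23), Ctsz (2.57 ± 0.24) and Neu1 (0.63 ± 0.24). The lower ones were Ctsd (-3.4 ± 0.26), Ctsb (-2.1 ± 0.22), Npc2 (-1.33 ± 0.24), Ctsa (-1.25 ± 0.2), Lipa (-1.24 ± 0.4) and Ctsc (-0.75 ± 0.27). No membrane gene and no pump subunit was called. Lgmn in B-like cells was 108.1, 73.3, 94.8 and 66.4 CPM.

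Enterocyte-like cells had 15 members higher and 4 lower than T-like cells, beside 34.7% and 37.3% of all genes, a contrast in which most genes were called. Ctsh (6.28 ± 0.36), Lgmn (3.97 ± 0.31) and Ctsz (3.25 ± 0.24) rose most, and Lamp1 was 6.3-fold higher (2.65 ± 0.26). The lower members were Laptm5 (-6.92 ± 0.38), Cd68 (-1.35 ± 0.44), Ctsc (-1.28 ± 0.27) and Ctsd (-0.63 ± 0.21). Cd68 read 0 to 1.05 CPM in enterocyte-like and 1.33 to 3.65 CPM in T-like cells, so its call compares levels near the C1qa floor. With no scaling beyond the class totals the split over all genes went from 4083 higher and 4390 lower to 3053 and 6111, the median of all genes from -0.12 to -0.71, and the count of members called lower from 4 to 8. Hexa, called higher at 0.48 ± 0.2, was at -0.10 under that scaling. Enterocyte-like cells of the 4 libraries differed in median depth, from 1991 to 13668 UMIs per cell, and the part of that in the result was not tested.

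Classes too small for the fit are given as values. Plasma-like cells numbered 3, 7, 55 and 16 in saline 1, saline 2, saline shared and PFF 1, and the 29 members took 0.121% ± 0.00997 of their UMIs, below every class above. A fit without saline 1 called 12 of 29 members higher and 7 lower than in T-like cells, beside 11.9% and 22.4% of all genes. With no scaling it called 6 members higher and 12 lower, beside 686 and 7038 of all 11772 genes. The median log2 of all genes went from -0.55 to -1.65. The counts of members thus moved with the scaling, as did those of all genes. Lgmn, Ctsh, Ctss and Gusb were called higher with scaling at 5.93 ± 0.46, 4.61 ± 0.61, 3.8 ± 0.35 and 2.96 ± 0.26. Gusb, the beta-glucuronidase, read 95.7, 69.1 and 55.6 CPM in the plasma-like cells of saline 2, saline shared and PFF 1, against 18.9 to 22.1 CPM in T-like cells. Goblet-like cells (1, 8, 6 and 26) and mast-like cells (2, 2, 4 and 9) spent 0.135% ± 0.0194 and 0.18% ± 0.0162 of their UMIs on the members.

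T-like cells were divided by receptor genes into CD4 (6, 9, 93 and 67 cells in saline 1, saline 2, saline shared and PFF 1), CD8 alpha-beta (80, 53, 922 and 209) and gamma-delta cells (3094, 2253, 4422 and 6135). The remaining T-like cells (1674, 881, 2934 and 2807) fell in none of these groups and were left out of the subset fit. In CD8 alpha-beta against CD4 cells 2 of 26 tested members were higher and 1 lower, beside 3.26% and 2.48% of all genes. In gamma-delta against CD4 cells 2 were higher and 2 lower, beside 8.5% and 6.73%. The called members were all cathepsin-type genes. Ctsc was 0, 43.7, 107.6 and 52.7 CPM in CD4 cells, 106.3, 214.1, 152.9 and 157.1 CPM in CD8 alpha-beta cells and 236, 264.4, 256.3 and 252.5 CPM in gamma-delta cells. Its gamma-delta range lay above every CD4 and CD8 value, and the fitted log2 differences from CD4 cells were 1.87 ± 0.27 (edgeR adjusted p = 5.398e-05) and, for CD8 alpha-beta cells, 1.22 ± 0.28. Ctss ran down the same order: 138.6, 164, 80.2 and 74.2 CPM in CD4, 68, 42.8, 57.6 and 45.7 CPM in CD8 alpha-beta and 36.6, 37.9, 37.9 and 25.7 CPM in gamma-delta cells. The ranges of CD4 and gamma-delta cells did not overlap (log2 -1.5 ± 0.25, edgeR adjusted p = 0.0001865), and the CD8 difference was not called (-0.81 ± 0.25, adjusted p = 0.069). Ctsd was higher in CD8 alpha-beta (0.92 ± 0.25) and gamma-delta cells (0.82 ± 0.25) than in CD4 cells. Lgmn was lower in both, on 0, 0, 4 and 10 UMIs in CD4 cells. Among members not called, the lowest values in CD8 alpha-beta cells after Ctss were those of Ctsz (-0.75 ± 0.36), and the highest those of Ctsa (0.37 ± 0.25). In gamma-delta cells Asah1 (0.81 ± 0.34) and Neu1 (-0.79 ± 0.38) were the farthest from 0 among those not called.

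These subset calls rest on few CD4 cells. Without PFF 1, CD8 alpha-beta against CD4 cells had 0 members higher and 0 lower, and gamma-delta against CD4 cells 1 higher and 1 lower. Without saline 1 the counts were 1 higher and 0 lower, and 1 higher and 2 lower. Ctsd lost its call in both contrasts in either case, and Ctsc in gamma-delta cells kept its call in both.

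**Figure D4:**
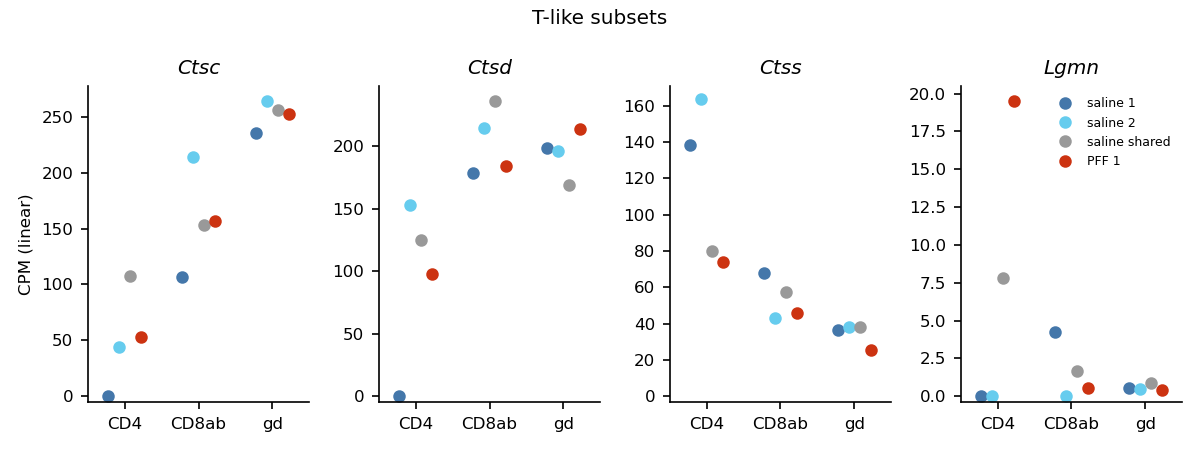
CPM of Ctsc, Ctsd, Ctss and Lgmn in CD4, CD8 alpha-beta (CD8ab) and gamma-delta (gd) T-like cells, on linear axes with 1 point per library. Ctsc climbs from CD4 to gamma-delta cells in each library and Ctss falls, while Lgmn in CD4 cells is at 0 in saline 1 and saline 2.

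PFF 1 was compared with saline 1 and saline 2 within each class to ask whether lysosomal genes differ at day 30 after the fibrils. No member was called in any class. The members tested were 27 in macrophage-like, 28 in conventional dendritic-like, 27 in plasmacytoid dendritic-like, 26 in B-like, 29 in T-like and 28 in enterocyte-like cells. Over all genes 0.963%, 0.096%, 0.053%, 0.0581%, 0% and 0% were called in these classes. At an unadjusted p under 0.05 there was 1 member in macrophage-like cells (Npc1), 1 in T-like cells (Ctss) and 0 in each of the others. Beside these, 223 of 5089 genes in macrophage-like and 459 of 16058 genes in T-like cells were under that p. DESeq2 called 0 members in all 6 classes. With 1 PFF library, the only measure of spread was the pair of saline libraries, and PFF 1 is assumed to vary as they do. On simulated counts with a fixed spread the same fit recovered 24% of 4-fold and 3% of 2-fold changes in macrophage-like cells. In T-like cells it recovered 77% and 12%. In the real macrophage-like cells the SE of members ran from 0.83 (Atp6v1b2) to 1.22 (Psap) on the log2 scale. In the real T-like cells it ran from 0.15 (Atp6v1a) to 0.89 (Lgmn). The simulation used the same spread for every class, so its recovered shares need not hold in these libraries. How large a change would have been called in them was not tested.

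In macrophage-like cells the saline libraries themselves differed widely, with Psap between 3785 and 9381 CPM. All 29 members together took 1.96% of UMIs in PFF 1, inside the saline range of 1.94% to 2.70%. The 9 cathepsin-type genes took 0.951% in PFF 1, under saline 1 (1.26%), saline 2 (1.16%) and saline shared (1.05%), a gap that was not tested. Ctss read 2165 CPM in PFF 1 and 2825 to 3201 CPM in the saline libraries, with a fitted log2 difference of -0.34 ± 1.12. Lamp1 and Atp6v0c were highest in PFF 1, by a small margin over saline 2, at 0.49 ± 0.98 and 0.34 ± 0.97. Psap (-0.51 ± 1.22) and Grn (0.12 ± 0.98) lay inside their saline ranges. Hexa read 287.8 CPM in PFF 1, below the saline libraries at 329.5 to 337.8 CPM, with a fitted difference of -0.04 ± 0.94. Npc1 had the largest fitted difference, 2.25 ± 1.14, at an unadjusted p of 0.047 and an edgeR adjusted p of 1.00. It rests on 36 UMIs in 18 of 99 cells of PFF 1, against 0 of 18121 UMIs in saline 1, which allows up to 165.6 CPM, 4 UMIs in saline 2 and 10 in saline shared. Against saline shared alone PFF 1 stood 0.92 higher on the log2 scale.

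**Figure D5:**
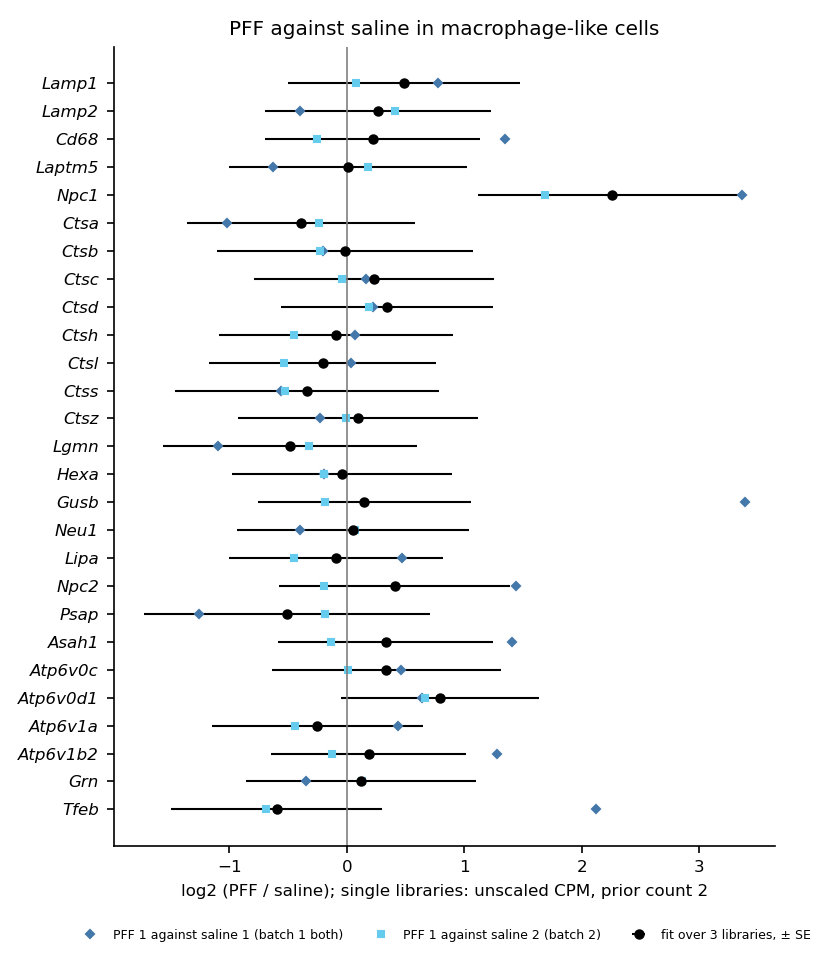
Log2 difference between PFF 1 and the saline libraries for 27 members in macrophage-like cells, with the fit over 3 libraries (black, ± SE) and PFF 1 against each saline library alone on unscaled CPM (coloured; saline 1 shares the batch label of PFF 1). Most bars cross 0, with Npc1 farthest to the right at 2.25.

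Within the batch label that PFF 1 shares with saline 1, the unscaled comparison put 18 of 29 members above saline 1 in macrophage-like cells, and 10 of 29 above saline 2, with 6 above both. After TMM scaling 25 stood above saline 1, whose macrophage-like cells number 10, and 9 above saline 2. In T-like cells, the class with the most cells and UMIs, 11 members stood above saline 1, 13 above saline 2 and 6 above both, unscaled. After TMM scaling 14 stood above saline 1 and 11 above saline 2. These counts were not computed over all genes, so a shift of the members cannot be told apart from a shift of a whole library. Ctss in T-like cells was 26.7 CPM in PFF 1 and 40.1, 38.3 and 40.1 CPM in saline 1, saline 2 and saline shared. PFF 1 lay below every saline library for Ctss, with a fitted log2 difference of -0.53 ± 0.17 at an unadjusted p of 0.0148 and an edgeR adjusted p of 1.00. Of the other classes, Grn in B-like cells was at -1 ± 0.78 (log2 ± SE), Ctsl in plasmacytoid dendritic-like cells at 0.71 ± 0.46 and Ctsd in conventional dendritic-like cells at 1.36 ± 1.49 on 11 UMIs in PFF 1. The difference between these classes was not tested.

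Other genes of the pathway were counted as lists. Of 44 tested further lysosomal genes 26 were higher and 5 lower in macrophage-like than in T-like cells, with a median log2 of 1.29. Over all genes 19.5% were higher and 21.6% lower in that contrast, with a median log2 of -0.28. Cd63, a tetraspanin of late endosomes (7.33 ± 0.48), Ifi30, the thiol reductase of antigen processing (6.1 ± 0.36), and Gpnmb, a glycoprotein of phagocytes (5.49 ± 0.52), were among the higher ones. Ctsw, a cathepsin of cytotoxic lymphocytes, was lower at -4.69 ± 0.37. Of 13 further pump genes 10 were higher and 1 lower, with a median of 0.99. Among 3 tested cathepsin inhibitors, Cst3 (2.96 ± 0.33) and Cstb (2.09 ± 0.25) were higher and Cst7, cystatin F of cytotoxic cells, lower (-4.89 ± 0.74). The 14 sorting and regulatory genes were divided, with 5 higher and 4 lower. In B-like against T-like cells 10 of the 44 further lysosomal genes were higher and 20 lower, and in enterocyte-like cells 13 and 20. Over all genes the shares called higher and lower were 18.8% and 22.8% for B-like and 34.7% and 37.3% for enterocyte-like cells. Ctsw and Cst7 were also higher in CD8 alpha-beta and gamma-delta than in CD4 cells, at 1.94 ± 0.22 and 2.46 ± 0.26 for CD8 alpha-beta. No gene of any of the 4 lists was called between PFF and saline in any of the 6 classes.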

How the data were processed

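Single-cell RNA-seq counts were taken from 3 deposited matrices, 2 saline and 1 PFF. The authors deposited whole-number UMI counts per gene and cell barcode, made with Cell Ranger 7.0.0 per the file headers on mm10 per the submitters' processing notes. How wells were joined is not stated in any source used. The cell filter was 500 UMIs, 200 genes and a mitochondrial limit of 15%. Scrublet's automatic threshold marked under 0.5% in nearly every well, so the highest scores were removed at 0.8% per 1000 cells. A cell entered a class with at least 3 of its markers and at least 2 times as many as of any other class; Siglech divided dendritic from plasmacytoid dendritic cells, and genes of mature B cells such as Ms4a1 and Pax5 divided B from plasma cells, a rule added after cell numbers were seen. Class sums of each library went into edgeR 4.0.16 (R 4.3.3; TMM, filterByExpr, quasi-likelihood F test, 2-sided); SE is the log2 fold change over the root of F. DESeq2 1.42.0 was an alternative. Positions are from GENCODE M21 and promoters from RefSeq GRCm38.p6. The fits were tested on simulated data with a fixed spread, at an adjusted p under 0.05. False calls made up 8.70% of the calls for macrophage-like against T-like cells. In the PFF comparisons they made up from 0% (conventional dendritic-like) to 12.9% (macrophage-like), with 9.18% in T-like cells. Members, lists and tests were chosen with earlier results of these data known. All members were named by role, with every library's value for the highest of each role in macrophage-like cells plus, per contrast, the 3 lowest and 3 highest fitted values; further values (Npc1, Ctsd, Tfeb, Laptm5) were chosen after they were seen. Counts do not separate overlapping genes on the opposite strand unless strand was used, which no source states; 9 members overlap one. Some items are not reported here.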

Additional observations from a re-analysis of the deposited data

How the results depend on the processing

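No member was called between PFF and saline in any class under any alternative, and of 124 calls of members in the class contrasts at most 16 were lost under a single setting (no low-count filter). Counts of members called lower moved with no scaling to 2 in conventional dendritic-like and 8 in enterocyte-like cells against T-like cells, and with no low-count filter to 2 in conventional dendritic-like, 4 in plasmacytoid dendritic-like and 11 in B-like cells; the cause was not tested. DESeq2 gave 0 lower in CD8 alpha-beta against CD4 cells, and leaving out the wells that both saline files hold gave 1 lower in gamma-delta against CD4 cells. Leaving out 1 library at a time gave 0 to 2 members higher and 0 to 1 lower in CD8 alpha-beta, and 1 to 2 higher and 1 to 2 lower in gamma-delta cells. Hexa in enterocyte-like against T-like cells reversed to -0.10 with no scaling. Over all genes, PFF against saline in macrophage-like cells called 49 genes, 21 with no scaling, 5 without the low-count filter, 1 with DESeq2 and 0 with at least 4 markers or at least 1000 UMIs; in T-like cells it called 0, 105 with no scaling (18 higher, 87 lower), 119 without the filter, 4 with DESeq2 and 2 with doublets kept. In conventional dendritic-like cells it called 8, 5 without the filter, 0 with DESeq2 and 1 with the shared wells added to the saline group; in plasmacytoid dendritic-like cells 4, and 0 with DESeq2 or the shared wells; in B-like cells 5, 1 with DESeq2, 3 with 4 markers or doublets kept, 2 without shared barcodes and 0 with the shared wells; in enterocyte-like cells 0, 5 without the filter and 1 at a mitochondrial limit of 10%. Without the filter, calls went from 4900 to 7772 (plasmacytoid dendritic-like), 4898 to 7983 (B-like) and 595 to 914 (CD8 alpha-beta). Without PFF 1 they went from 4838 to 3149 (macrophage-like against T-like), 2349 to 1273 (macrophage-like against conventional dendritic-like), 1581 to 686 (gamma-delta) and 595 to 127 (CD8 alpha-beta, 326 without saline 1). No scaling, removal of shared barcodes and the plasma-like fit were added after seeing the data. No scaling moved the split in conventional dendritic-like against T-like cells from 2577 higher and 2981 lower to 2095 and 4265. No paired analysis was possible because saline and PFF share only replicate number 1. In the PFF comparisons, a fit with 1 saline library has no spread to test against, so only its values were computed. Macrophage-like cells of saline 1 limit the depth: a count of 0 there allows up to 165.6 CPM.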
